A study of Mus musculus with 6 samples.

Results

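The histone deacetylases of the zinc-dependent family were followed in MEL cells, a mouse erythroleukemia line, over a course of DMSO. The RefSeq accessions in the 6 count files were given gene symbols, and 268 of 32654 got none. The genes Hdac1, Hdac2, Hdac3, Hdac4, Hdac5, Hdac6, Hdac7, Hdac8, Hdac10 and Hdac11 were taken, each by the transcript with the highest mean count. They are 10 of the 23896 genes with a symbol and 10 of the 12381 genes that entered the test, so every deacetylase gene of the list had enough counts to be tested. Hdac9 was also listed, with 2 transcripts at 0 counts in all 6 libraries, and was not detectable at this depth.

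The study grew MEL cells in suspension in minimal essential medium with fetal bovine serum and induced them with 2% DMSO. Cells were taken before DMSO (day 0) and after 2 and 4 days in it, with 2 biological replicates a day, all from the same line. Whether the 6 samples came from separate cultures is not stated. Total RNA was made into stranded mRNA libraries, and the comparisons ask which transcripts differ between the days. 3 comparisons are used: the early step (day 2 against day 0), the late step (day 4 against day 2) and the whole course (day 4 against day 0). The early step and the whole course share the day 0 libraries, both steps share the day 2 libraries, and the late step and the whole course share the day 4 libraries.

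As background, histone deacetylases take acetyl groups off lysines of histones and other proteins and mostly work inside larger repressor complexes. Class I enzymes are mainly nuclear, class IIa enzymes bind MEF2 factors and shuttle between nucleus and cytoplasm, class IIb enzymes act largely in the cytoplasm, and Hdac11 is the sole class IV enzyme. In erythroid cells deacetylase complexes are partners of GATA1, chemical inhibitors of deacetylases induce MEL cells to make hemoglobin, and Hdac2 and Hdac6 have known roles in the enucleation of mouse erythroblasts.

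Summed over transcripts, the depth was 43415610 and 53899476 counts in the day 0 libraries, 39258359 and 45896399 in the day 2 libraries, and 35294930 and 45621291 in the day 4 libraries. The transcripts listed for Hdac5, for Hdac6, for Hdac7 and for Hdac10 carried nearly the same counts within each gene, so reads there were counted for more than 1 transcript and these sums are not numbers of reads. The 2 libraries of day 0 stood further apart than those of the other days: chi-square per degree of freedom between replicates was 58.1 at day 0, 10.4 at day 2 and 16.4 at day 4. For the 10 deacetylase genes, the value without a day 0 library is therefore given where leaving it out changes a call. The counting errors given cover counting only. The standard errors (SE) of log2 fold changes and the p-values come from the fits and take in the spread between replicates of the same line.

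The label of the cells was checked against marker lists. The 10 erythroid markers were all tested, and their summed level was 998 and 1099 scaled counts (CPM, on library sizes scaled by trimmed means of M-values, TMM) at day 0, 4475 and 5338 CPM at day 2, and 17725 and 19860 CPM at day 4. The most abundant over the 6 libraries was Hba-a1, the alpha globin gene, though at day 0 Klf1, Gata1, Ank1 and Epor had higher mean CPM. Hba-a1 was at 128 and 123 CPM at day 0 and at 9794 and 11461 CPM at day 4. Over the whole course, 9 of the 10 erythroid markers rose and 1, Klf1, fell (log2 fold change -0.54). Of all tested genes 35.5% rose and 36.4% fell. The call of Klf1 was lost without day 0 replicate 2 (-0.17), day 4 replicate 1 (-0.55) or day 4 replicate 2 (-0.54), and that of Gata1 (0.37) without day 4 replicate 2 (0.36). The cells thus carried most erythroid genes of the list at all 3 days. Slc4a1 was near 0 at day 0, with a mean of 0.231 CPM against 40.4 CPM at day 4. Epb42 was also low at day 0, at a mean of 4.58 CPM. Of 9 myeloid markers 8 had a symbol in the files, 4 of them with under 60 counts in all, and their summed level was 102 and 122 CPM at day 0, 14.2 and 13.8 CPM at day 2, and 12.6 and 7.49 CPM at day 4. Nearly all of that was Spi1 (99.2 and 120 CPM at day 0, 10.8 and 6.65 CPM at day 4), a gene that erythroleukemia cells of the Friend virus are known to express. The summed level of the 7 lymphoid markers lay between 0.221 and 1.38 CPM, with Ms4a1 and Pax5 at 0. Cd3g was the most abundant over the 6 libraries, though at day 0 Cd79a had a higher mean (0.154 against 0.085 CPM). The summed level of the 6 megakaryocyte markers was 271 and 277 CPM at day 0, 215 and 237 CPM at day 2, and 545 and 620 CPM at day 4, mostly from Itga2b, which early erythroid cells share. Over the whole course, 2 of 5 tested megakaryocyte markers rose and 3 fell, and of 5 tested myeloid markers 0 rose and 2 fell. These numbers are to be read beside the 71.8% of all tested genes that were called. Of the megakaryocyte markers, Itga2b rose (1.38) and Pf4, the next most abundant, fell (-2.39, SE 0.16, edgeR adjusted p 3.18e-07). Pf4 went from 50 ± 10.4 CPM at day 0 to 9.56 ± 0.897 CPM at day 4 (SD, n = 2). Its value lay between -2.60 and -2.17 over the alternatives. The 1 tested lymphoid marker, Cd3g, rose (2.51), and both tested fibroblast markers fell (Col1a1 -1.20 and Pdgfra -2.48). Without day 0 replicate 2, Col1a1 was not called (-0.70). Pdgfra, the myeloid marker Cd14 and the megakaryocyte marker Ppbp had 69, 64 and 33 counts in all. Their mean CPM was highest at day 0 (0.567, 0.52 and 0.341). The filter on low counts could pass them through that day alone, so nothing is drawn from their falls. Nor is anything drawn from the rise of Cd3g, with 161 counts and its highest mean at day 2 (1.22 CPM). Among the megakaryocyte markers the call of Gp1bb (-0.72) was lost without day 0 replicate 2 (-0.28), day 2 replicate 1 (-0.73), day 2 replicate 2 (-0.72) or day 4 replicate 1 (-0.50). The call of Gp9 (0.66) was lost without day 0 replicate 2 (0.42), day 2 replicate 1 (0.66), day 2 replicate 2 (0.66) or day 4 replicate 2 (0.58). The summed level of the 5 fibroblast markers was at most 3.24 CPM, with Col1a1 the most abundant and Col3a1 and Dcn at 0. The part of these marker changes in the results on the deacetylases was not tested. In bulk RNA fewer cells that express a gene and less of its RNA per cell cannot be told apart.

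A gene is called here when its edgeR adjusted p, taken over all 18351 tested transcripts, is below 0.05. From day 0 to day 2, 7 of the 10 deacetylase genes changed, where 62.5% of all tested genes did (31.0% higher and 31.5% lower). Hdac4, Hdac5, Hdac6 and Hdac11 rose, and Hdac1, Hdac2 and Hdac7 fell. From day 2 to day 4, 2 of the 10 changed, Hdac6 upwards and Hdac2 downwards, where 30.3% of all tested genes did (14.0% higher and 16.2% lower). Over the whole course, 8 of the 10 were called, where 71.8% of all tested genes were (35.5% higher and 36.4% lower). Those that rose were Hdac3, Hdac4, Hdac5, Hdac6 and Hdac11, those that fell were Hdac1, Hdac2 and Hdac7, and Hdac8 and Hdac10 did not pass the test. The share of deacetylase genes called was thus near that of all genes in each comparison.

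The size of the changes was also near that of other genes. The median log2 fold change over the 10 deacetylase genes was 0.26 over the early step, -0.04 over the late step and 0.22 over the whole course, against 0.01, -0.00 and -0.02 over all tested genes. The median size regardless of sign was 0.48, 0.35 and 0.63 for the deacetylase genes, and 0.53, 0.28 and 0.71 over all tested genes. Single libraries bear on these counts. Without day 0 replicate 1, all 10 deacetylase genes were called over the early step, where 65.1% of all tested genes were, and the number was 5 without day 2 replicate 1 (46.4% of all genes) or day 2 replicate 2 (45.7%). Over the late step the number was 6 without day 0 replicate 1 (43.0% of all genes) or day 0 replicate 2 (43.4%), 0 without day 2 replicate 1 (7.4%) or day 4 replicate 2 (11.5%), and 1 without day 2 replicate 2 (12.9%). With all 6 libraries, 6 genes had an unadjusted p below 0.05 in that comparison and DESeq2 called 4. Scaling to total counts alone in place of TMM moved the median of all genes to 0.21 over the early step, -0.09 over the late step and 0.10 over the whole course. The calls that were higher then made up 63.4% in place of 49.6% over the early step, 32.7% in place of 46.4% over the late step and 55.1% in place of 49.4% over the whole course. With that scaling Hdac8 and Hdac10 were called higher at day 2 and the calls of Hdac1 and Hdac2 at day 2 were lost, with 6 higher and 1 lower.

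**Figure D1:**
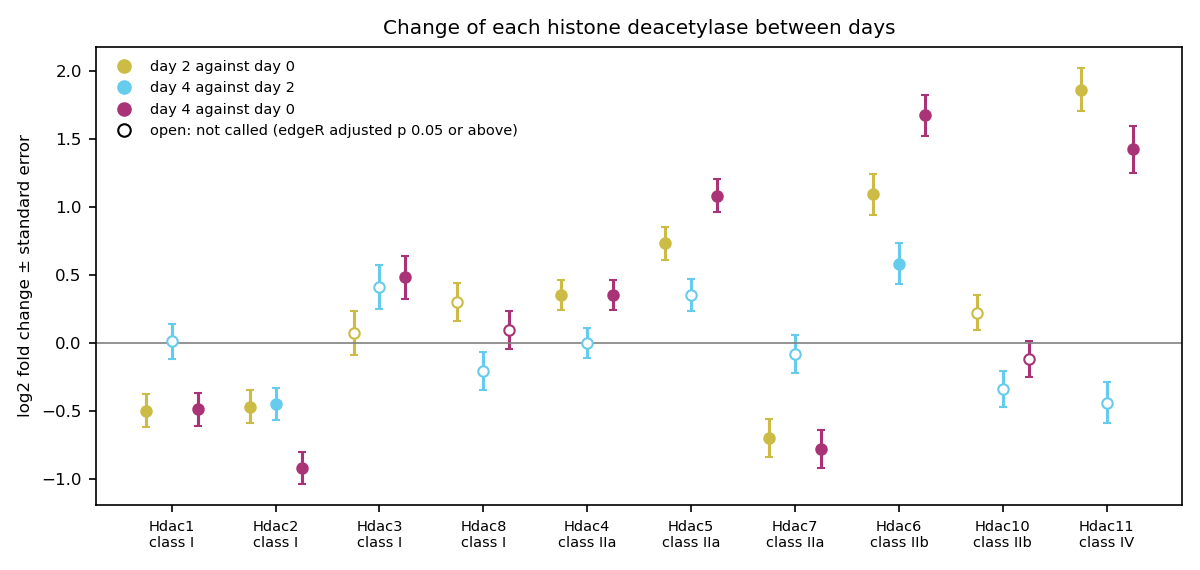
Log2 fold change of each of the 10 deacetylase genes over the early step, the late step and the whole course, with bars of 1 standard error from edgeR (2 libraries a day). Hdac6 (1.67) and Hdac11 (1.42) show the highest values over the whole course, and Hdac2 (-0.92) the lowest with all 6 libraries.

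Promoter sequences are given as a description of the genes with the largest changes. No motif was tested against the size of a change. They come from RefSeq (build GRCm38.p6), from 250 bases before to 50 bases after an annotated start, and 7 of the 10 genes have an entry. 4 motifs were searched on both strands: AGATAA (the GATA type), CCNCNCCC (the KLF1 type), GGGCGG (the GC box) and CCAAT. A GC box or its reverse complement can overlap the KLF1 type. Of all 32851 promoters in the table, 11.2% hold AGATAA, 49.5% CCNCNCCC, 35.7% GGGCGG and 37.4% CCAAT. Among the 7 deacetylase genes, AGATAA is found for 1 (Hdac7), CCNCNCCC for 4 (Hdac4, Hdac5, Hdac7 and Hdac11), GGGCGG for 6 (all but Hdac8) and CCAAT for 5 (Hdac4, Hdac5, Hdac6, Hdac8 and Hdac11). The sequences, with every motif match in capitals, are those of the genes that rose most (Hdac11, Hdac6, Hdac5) and those that fell most (Hdac2, Hdac7), 5' to 3' on the strand of the gene. Hdac11 lies at chr6:91156565-91156864 on the + strand, Hdac6 at chrX:7947840-7948139 on the - strand, Hdac5 at chr11:102230123-102230422 on the - strand and Hdac2 at chr10:36974294-36974593 on the + strand. For Hdac7, both the entry with AGATAA at chr15:97831446-97831745 and the entry at the upstream end of the gene at chr15:97844453-97844752 are shown, both on the - strand.
Hdac11: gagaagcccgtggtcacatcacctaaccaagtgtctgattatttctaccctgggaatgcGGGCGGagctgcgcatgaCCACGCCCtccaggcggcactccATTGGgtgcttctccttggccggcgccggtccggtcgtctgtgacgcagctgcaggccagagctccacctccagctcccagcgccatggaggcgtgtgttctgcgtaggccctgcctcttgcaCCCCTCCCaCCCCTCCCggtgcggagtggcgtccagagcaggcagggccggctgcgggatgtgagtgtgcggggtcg
Hdac6: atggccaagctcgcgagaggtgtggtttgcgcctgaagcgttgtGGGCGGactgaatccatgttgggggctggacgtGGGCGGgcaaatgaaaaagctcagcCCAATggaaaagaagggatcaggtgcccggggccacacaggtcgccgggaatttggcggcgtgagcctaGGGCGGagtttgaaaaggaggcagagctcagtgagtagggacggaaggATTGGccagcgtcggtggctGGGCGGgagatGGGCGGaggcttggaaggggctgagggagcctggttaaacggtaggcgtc
Hdac5: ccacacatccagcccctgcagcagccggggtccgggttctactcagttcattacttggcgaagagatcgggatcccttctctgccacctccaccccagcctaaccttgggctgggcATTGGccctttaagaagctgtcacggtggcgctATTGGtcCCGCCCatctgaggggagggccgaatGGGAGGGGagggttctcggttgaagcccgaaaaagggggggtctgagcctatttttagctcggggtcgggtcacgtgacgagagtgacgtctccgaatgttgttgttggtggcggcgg
Hdac2: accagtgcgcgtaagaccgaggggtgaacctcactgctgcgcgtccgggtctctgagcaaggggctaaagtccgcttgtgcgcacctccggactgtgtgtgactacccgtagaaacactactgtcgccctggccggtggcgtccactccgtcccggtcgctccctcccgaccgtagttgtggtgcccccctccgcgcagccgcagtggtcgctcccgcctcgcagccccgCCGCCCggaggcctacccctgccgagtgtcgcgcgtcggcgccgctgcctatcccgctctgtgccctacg
Hdac7 entry with AGATAA: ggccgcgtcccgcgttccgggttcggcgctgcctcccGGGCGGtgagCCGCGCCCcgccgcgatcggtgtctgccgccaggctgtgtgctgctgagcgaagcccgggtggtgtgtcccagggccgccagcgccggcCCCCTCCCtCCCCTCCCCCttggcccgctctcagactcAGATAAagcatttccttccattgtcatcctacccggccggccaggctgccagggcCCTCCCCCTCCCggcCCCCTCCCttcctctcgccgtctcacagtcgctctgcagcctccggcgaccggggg
Hdac7 entry at the upstream end: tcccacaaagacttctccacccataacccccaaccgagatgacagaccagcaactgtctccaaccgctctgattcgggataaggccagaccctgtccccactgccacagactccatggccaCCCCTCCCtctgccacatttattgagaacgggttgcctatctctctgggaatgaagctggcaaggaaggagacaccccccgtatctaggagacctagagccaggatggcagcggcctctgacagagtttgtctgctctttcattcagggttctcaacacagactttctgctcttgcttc

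The Hdac6 promoter holds 5 GC boxes and 2 CCAAT matches, and the Hdac2 promoter holds 1 GC box and none of the other motifs. In Hdac7 the AGATAA match lies 76 bases before the start of its entry, which is 1 of 4 entries of the gene. The other 3 hold neither AGATAA nor a GC box, that at the gene's upstream end included. The entry with AGATAA starts 12807 bases from the start of the counted transcript, and the upstream entry 200 bases from it. The shares of all promoters are per entry, while genes are counted by a match in any of their entries, so the 2 are not alike for Hdac7. The G and C content of the promoters shown is 66.7% for Hdac11, 62.0% for Hdac6, 60.7% for Hdac5 and 69.7% for Hdac2. It is 73.7% and 54.7% for the Hdac7 entries, where the median of all promoters is 52.7%. The upstream Hdac7 entry thus lies near that median. Of the genes not shown, Hdac4 is at 68.0% and Hdac8 at 49.7%. Genes that rose and genes that fell both hold GC boxes. A match is a description of letters in the window, and binding was not measured here.

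Class I holds Hdac1 and Hdac2, the catalytic subunits of the SIN3, NuRD and CoREST complexes, Hdac3, the enzyme of the NCoR complex, and Hdac8, which deacetylates the cohesin subunit SMC3. Hdac2 (NM_008229, gene at chromosome 10, 36974297 to 37001889 in GRCm38) fell at each step. Its normalised level was 87.8 and 88.9 CPM at day 0, 70.1 and 57.5 CPM at day 2, and 49.2 and 44.4 CPM at day 4. Both libraries of each day lay below both of the day before. The log2 fold change was -0.47 (SE 0.12, edgeR adjusted p 0.00509) over the early step, -0.45 (SE 0.12, edgeR adjusted p 0.0167) over the late step and -0.92 (SE 0.12, edgeR adjusted p 3.81e-05) over the whole course. So Hdac2 transcript at day 4 was 1.89-fold lower than at day 0. The call for day 2 was lost without day 2 replicate 2 (log2 fold change -0.33) and with total counts alone (-0.27), with edgeR and DESeq2 adjusted p from 0.000625 to 0.0929 over the alternatives. The call over the late step was lost without day 2 replicate 1 (-0.30) and without day 4 replicate 2 (-0.38), with adjusted p by edgeR and DESeq2 from 0.00208 to 0.228.

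Hdac1 (NM_008228, gene at chromosome 4, 129516104 to 129542646) was at 25.5 and 24.1 CPM at day 0, 16.5 and 18.6 CPM at day 2, and 16.8 and 18.6 CPM at day 4. Both day 0 libraries lay above the other 4, and the day 2 and day 4 libraries overlapped. It fell from day 0 to day 2 (log2 fold change -0.50, SE 0.12, edgeR adjusted p 0.00481) and was lower at day 4 than at day 0 (-0.49, SE 0.12, edgeR adjusted p 0.00445), while the late step did not pass the test (0.01, SE 0.13, edgeR adjusted p 0.955). The day 2 call was lost without day 2 replicate 1 (-0.41) and with total counts alone (-0.30), with edgeR and DESeq2 adjusted p from 0.00127 to 0.0679 over the alternatives. The level of Hdac1 is uncertain: of its 2007 words of 32 bases, 62.5% also occur in transcripts of other genes, 60.4% in Gm10093, a processed pseudogene. Reads from those stretches could have been split between the genes.

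Hdac3 (NM_010411, gene at chromosome 18, 37936971 to 37955015) was at 102 and 68.5 CPM at day 0, 88.6 and 90.7 CPM at day 2, and 114 and 124 CPM at day 4. Both day 4 libraries were the highest, and both day 2 libraries lay between the widely spaced day 0 libraries. Over the whole course it rose (log2 fold change 0.48, SE 0.16, edgeR adjusted p 0.0174), while the early step (0.07, SE 0.16, edgeR adjusted p 0.707) and the late step (0.41, SE 0.16, edgeR adjusted p 0.0719) did not pass the test. This rise depends on which day 0 library is used: it was 0.79 without day 0 replicate 1, and 0.21 and not called without day 0 replicate 2. Without day 4 replicate 2 the call was also lost (0.41), with edgeR and DESeq2 adjusted p from 9.15e-06 to 0.0975 over the alternatives. Over the early step Hdac3 was called at 0.39 without day 0 replicate 1 and stood at -0.19 without day 0 replicate 2, with adjusted p by edgeR and DESeq2 from 0.00511 to 0.848. Over the late step Hdac3 was called by DESeq2 (0.42, DESeq2 adjusted p 0.0453), with no filter on low counts (0.40) and with only the 2 days compared (0.40). It was not called with total counts alone (0.33), relative log expression factors (0.42) or a block for the replicate number (0.41). That step was also called at 0.40 without day 0 replicate 1 and at 0.41 without day 0 replicate 2.

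Hdac8 (NM_027382, gene at chromosome X, 102284638 to 102505381) was at 21.5 and 17.1 CPM at day 0, 24.9 and 22.6 CPM at day 2, and 21 and 20 CPM at day 4. The day 2 libraries were the highest, and the day 4 libraries lay between those of day 0. No comparison passed the test, with log2 fold changes of 0.30 (SE 0.14, edgeR adjusted p 0.0736) over the early step, -0.21 (SE 0.14, edgeR adjusted p 0.255) over the late step and 0.09 (SE 0.14, edgeR adjusted p 0.581) over the whole course. Without day 0 replicate 1 the day 2 value was 0.47 and was called, with edgeR and DESeq2 adjusted p from 0.00448 to 0.356 over the alternatives.

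Class IIa holds Hdac4, Hdac5 and Hdac7, which have little deacetylase activity of their own and repress MEF2 target genes until kinases such as those of the CaMK and PKD families send them out of the nucleus. Hdac5 (NM_001284248, gene at chromosome 11, 102195747 to 102230172) was at 46 and 54.7 CPM at day 0, 77.1 and 89.5 CPM at day 2, and 100 and 112 CPM at day 4. Both libraries of each day lay above both of the day before. It rose from day 0 to day 2 (log2 fold change 0.73, SE 0.12, edgeR adjusted p 0.000432), and at day 4 it was 2.11-fold above day 0 (1.08, SE 0.12, edgeR adjusted p 1.51e-05). The value over the late step (0.35, SE 0.12, edgeR adjusted p 0.0505) lay just outside the threshold. With a block for the replicate number it passed (0.35, edgeR adjusted p 0.0244). It also passed with no filter on low counts (0.35), with only the 2 days compared (0.34) and by DESeq2 (0.36), and not with total counts alone (0.27). Without day 0 replicate 1 (0.35) and without day 0 replicate 2 (0.35) that step was called, with edgeR and DESeq2 adjusted p from 0.00832 to 0.381 over the alternatives. All 5 Hdac5 transcripts listed gave log2 fold changes over the whole course between 1.05 and 1.08.

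Hdac7 (NM_001204275, gene at chromosome 15, 97792661 to 97844502) went the other way. It was at 155 and 207 CPM at day 0, 115 and 108 CPM at day 2, and 99.3 and 112 CPM at day 4. Both day 0 libraries lay above the other 4, with the day 0 libraries far apart, and those of day 2 and day 4 overlapped. Hdac7 fell from day 0 to day 2 (log2 fold change -0.70, SE 0.14, edgeR adjusted p 0.00119) and was 1.71-fold lower at day 4 than at day 0 (-0.78, SE 0.14, edgeR adjusted p 0.000423). The late step did not pass the test (-0.08, SE 0.14, edgeR adjusted p 0.712). Both falls were called with either day 0 library left out: -0.89 at day 2 and -0.97 at day 4 without day 0 replicate 1, and -0.49 and -0.57 without day 0 replicate 2. The gene overlaps Slc48a1 and Gm33636 on the genome, and the strand setting of the counting is not given, so its counts could include theirs.

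Hdac4 (NM_207225, gene at chromosome 1, 91928779 to 92195702) was at 18.9 and 19.7 CPM at day 0, 24.5 and 24.9 CPM at day 2, and 24.2 and 25.2 CPM at day 4. Both day 0 libraries lay below the other 4, which overlapped. It rose from day 0 to day 2 (log2 fold change 0.35, SE 0.11, edgeR adjusted p 0.018) and was higher at day 4 than at day 0 (0.35, SE 0.11, edgeR adjusted p 0.015). The late step did not pass the test (0.00, SE 0.11, edgeR adjusted p 0.997). The day 2 call was lost without day 2 replicate 1 (0.37) or day 2 replicate 2 (0.35), and with total counts alone the value was 0.55, with edgeR and DESeq2 adjusted p from 0.00142 to 0.0981 over the alternatives. The call over the whole course was lost without day 4 replicate 2 (0.32), with adjusted p by edgeR and DESeq2 from 0.00334 to 0.0898. Class IIa as a whole had 0 calls of 3 by edgeR over the late step, where 30.3% of all tested genes were called, with 1 gene at an unadjusted p below 0.05 and 1 called by DESeq2.

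Class IIb holds Hdac6, the deacetylase of alpha-tubulin with a domain that binds ubiquitin, and Hdac10, a deacetylase of polyamines. With all 6 libraries Hdac6 had the largest rise of the 10 genes over the whole course, while without day 0 replicate 2 Hdac11 (1.57) stood above it (1.45). The transcript (NM_010413, gene at chromosome X, 7930116 to 7948047) was at 39.3 and 28.7 CPM at day 0, 67.5 and 76.7 CPM at day 2, and 102 and 114 CPM at day 4. Both libraries of each day lay above both of the day before. The log2 fold change was 1.09 (SE 0.15, edgeR adjusted p 9.02e-05) over the early step, 0.58 (SE 0.15, edgeR adjusted p 0.0119) over the late step and 1.67 (SE 0.15, edgeR adjusted p 2.21e-06) over the whole course, a level 3.19-fold higher. The call over the late step was lost without day 2 replicate 1 (0.49), without day 2 replicate 2 (0.68) and without day 4 replicate 2 (0.50), with edgeR and DESeq2 adjusted p from 3.46e-05 to 0.154 over the alternatives. Hdac6 over the whole course was called in each alternative run, with values from 1.45 to 1.91.

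Hdac10 (NR_028449, gene at chromosome 15, 89123303 to 89128700) was counted by a transcript with a noncoding accession, and its coding transcript NM_199198 had nearly the same counts. It was at 36.3 and 28.9 CPM at day 0, 37.1 and 38.9 CPM at day 2, and 28.8 and 31 CPM at day 4. The day 2 libraries were the highest, and the day 0 and day 4 libraries overlapped. No comparison passed the test, with log2 fold changes of 0.22 (SE 0.13, edgeR adjusted p 0.162) over the early step, -0.34 (SE 0.13, edgeR adjusted p 0.0685) over the late step and -0.12 (SE 0.13, edgeR adjusted p 0.413) over the whole course. These calls depend on the libraries and the scaling used. Without day 0 replicate 1 Hdac10 was called higher at day 2 (0.39) and lower from day 2 to day 4 (-0.35), and without day 0 replicate 2 it was called lower from day 2 to day 4 (-0.35) and over the whole course (-0.29). With total counts alone it was called over the early step (0.42) and the late step (-0.43), and with no filter on low counts, or only the 2 days compared, over the late step (-0.35). Over the alternatives the edgeR and DESeq2 adjusted p ran from 0.00643 to 0.676 over the early step, from 0.00565 to 0.274 over the late step and from 0.0276 to 0.946 over the whole course. The gene overlaps Gm46530.

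Class IV holds Hdac11, the smallest of the family, known to remove fatty acyl groups from proteins. Hdac11 (NM_144919, gene at chromosome 6, 91156670 to 91174692) had the largest rise from day 0 to day 2. It was at 3.06 and 3.81 CPM at day 0, 11.5 and 13.5 CPM at day 2, and 9.01 and 9.39 CPM at day 4. Both day 2 libraries were the highest, both day 4 libraries lay between, and no days overlapped. The log2 fold change was 1.86 (SE 0.16, edgeR adjusted p 4.51e-06) over the early step, a level 3.62-fold higher, and 1.42 (SE 0.17, edgeR adjusted p 1.69e-05) over the whole course, 2.67-fold higher. The value over the late step was -0.44 (SE 0.15, edgeR adjusted p 0.051), just outside the threshold. With a block for the replicate number it passed (-0.44, edgeR adjusted p 0.0424). It also passed with total counts alone (-0.52), with no filter on low counts (-0.44) and with only the 2 days compared (-0.45), and not by DESeq2 (-0.43). That step was called at -0.45 without day 0 replicate 1 and at -0.44 without day 0 replicate 2, with edgeR and DESeq2 adjusted p from 0.0108 to 0.318 over the alternatives. Its lowest count was 125, with a counting error of 8.94%, while the lowest counts of the other deacetylase genes lay between 607 and 3585, with errors from 1.67% to 4.06%. Of its words of 32 bases, 24.0% also occur in other genes, 21.5% in Gm44002, so part of its count is uncertain.

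**Figure D2:**
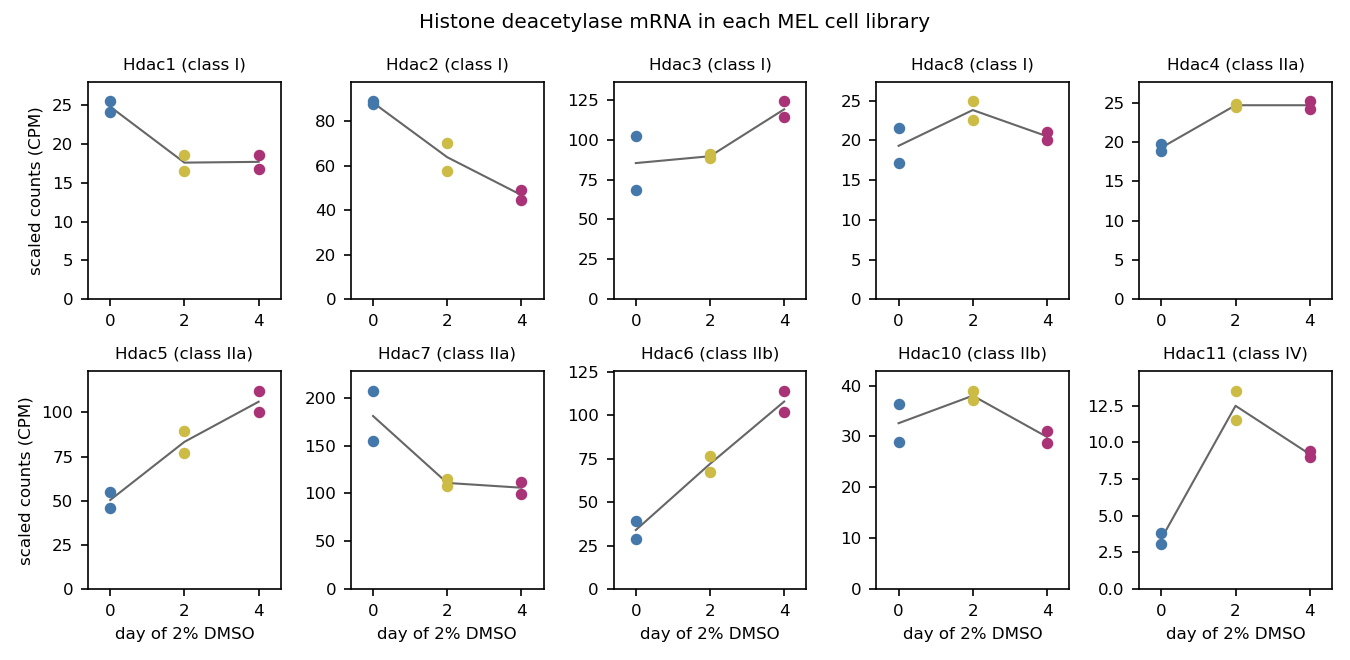
Normalised level of each of the 10 deacetylase genes (CPM on TMM-scaled library sizes) by day of DMSO. There is a point for each of the 2 libraries a day, and a line joins the means. Hdac6 lies at 34 CPM at day 0 and 108 CPM at day 4, and Hdac2 at 88.3 CPM at day 0 and 46.8 CPM at day 4.

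The steps of each gene were compared directly by the contrast of the change from day 2 to day 4 minus the change from day 0 to day 2. Of the 10 deacetylase genes, 1 had steps that differed, Hdac11, where 30.0% of all tested genes did. Its difference was -2.29 (SE 0.26, edgeR adjusted p 0.000246), and over the alternatives it lay between -2.58 and -2.06 and was called in each. For the others the difference ran from -0.56 (Hdac10, edgeR adjusted p 0.0793) to 0.63 (Hdac7, edgeR adjusted p 0.0747). Hdac2 had the value nearest 0, at 0.02 (edgeR adjusted p 0.944). The number was 5 without day 0 replicate 1 (41.9% of all genes), with Hdac6 (-0.75), Hdac7 (0.81), Hdac8 (-0.69) and Hdac10 (-0.74) added. It was 4 without day 0 replicate 2 (38.3%), with Hdac1 (0.55), Hdac3 (0.60) and Hdac5 (-0.50) added. It was 6 with total counts alone (35.4% of all genes), 3 with no filter on low counts (27.1%) and 2 by DESeq2 (30.0%). Since both steps use the day 2 libraries, an error there enters them with opposite signs.

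Between genes, levels can be compared per length, as TPM over the transcripts of 15887 genes. Hdac2, Hdac7 and Hdac3 were the most abundant deacetylase transcripts at day 0, at 144 ± 2.29, 143 ± 25.4 and 138 ± 41.4 TPM (SD, n = 2), and they did not differ beyond their spread. Below them came Hdac10, Hdac1, Hdac5, Hdac8 and Hdac6, from 40.3 to 26.9 TPM, where no neighbours were apart in both libraries, then Hdac4 at 7.8 TPM and Hdac11 at 4.22 TPM. At day 2 Hdac3 was the most abundant at 171 ± 1.75 TPM (SD, n = 2), above Hdac2 at 123 TPM and Hdac7 at 105 TPM. Hdac5 (75.6 TPM) and Hdac6 (67.4 TPM) followed and were not apart, and below them Hdac10, Hdac8, Hdac1, Hdac11 and Hdac4 were each apart from the next. At day 4 Hdac3 stood at 200 ± 8.38 TPM (SD, n = 2), above Hdac6, Hdac7, Hdac5 and Hdac2 at 89.1, 87.6, 84.9 and 79.7 TPM, whose neighbours in this order were not apart. So Hdac6 went from the eighth place to the group just below Hdac3. The order of these levels is a description with no test, and that of Hdac1 rests on counts that a pseudogene may share.

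The summed level of the 10 genes was 641 and 589 TPM at day 0, 713 and 704 TPM at day 2, and 655 and 680 TPM at day 4. Class I made up 61.0% and 53.8% of it at day 0, 54.3% and 51.5% at day 2, and 52.7% and 50.8% at day 4. The class IIa share was 26.4% and 35.7% at day 0, 26.7% and 27.5% at day 2, and 26.8% and 28.0% at day 4, so of the day 0 libraries replicate 1 was the highest of all in class I and replicate 2 in class IIa. Class IIb held 12.0% and 9.73% at day 0, 16.5% and 18.2% at day 2, and 18.8% and 19.4% at day 4, higher in each library of a later day. Within it Hdac10 held the larger mean share at day 0 (6.53%) and Hdac6 at day 2 and day 4, and the mean share of Hdac6 was 4.35% at day 0, 9.52% at day 2 and 13.3% at day 4. The mean share of Hdac2 in the sum of the 10 genes was 23.4% at day 0 and 12.0% at day 4, and that of Hdac3 was 22.2% and 29.9%. Hdac11 held a mean of 0.691%, 2.57% and 1.77% on the 3 days in turn. These shares were not tested.

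**Figure D3:**
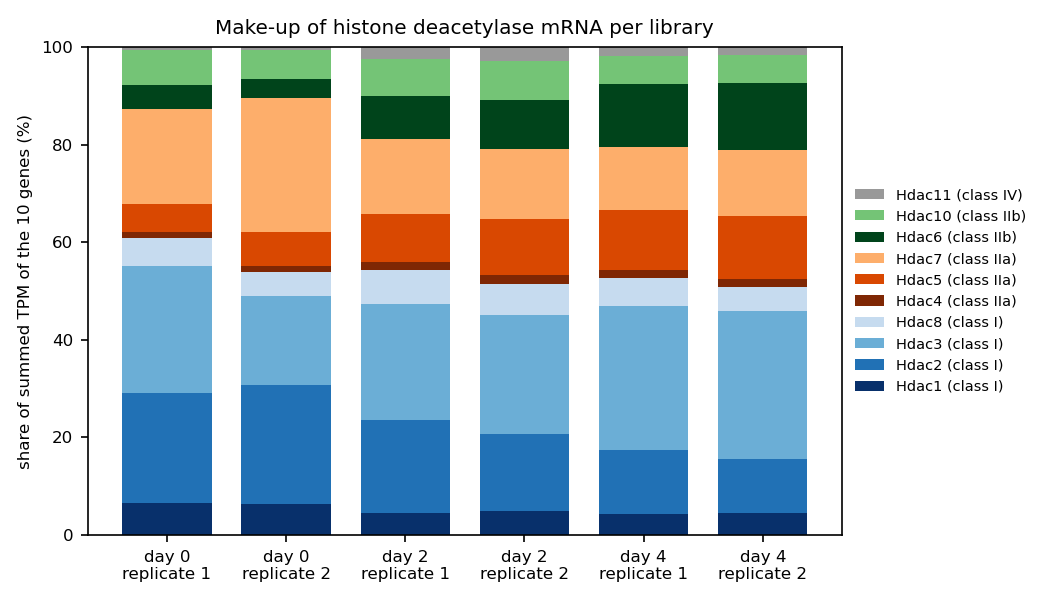
Share of the summed TPM of the 10 deacetylase genes held by each gene, in percent, for each of the 6 libraries. The share of Hdac6 lies between 3.78% and 4.92% at day 0 and between 13.0% and 13.7% at day 4, and that of Hdac2 between 22.7% and 24.2% at day 0 and between 11.0% and 13.0% at day 4.

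For 7 of the 8 deacetylase genes called over the whole course (all but Hdac1), the gene with the nearest pattern over the 6 libraries was found among 10444 genes, by the root mean square distance between centred log2 CPM. Hdac6 was nearest to Wdr6 (distance 0.067), which had log2 fold changes of 1.02, 0.50 and 1.53 over the early step, the late step and the whole course. Hdac11 was nearest to Aamdc (0.090), with 1.74, -0.30 and 1.45 in the same order, and Hdac2 was nearest to Vps35 (0.048), a subunit of retromer, with -0.40, -0.52 and -0.92. Nearest to the others were G6pc3 (Hdac3, 0.038), Phactr4 (Hdac4, 0.028), Trafd1 (Hdac5, 0.042) and B4galt7 (Hdac7, 0.044). Among these 7 the distance was largest for Hdac11 and Hdac6, the deacetylase genes with the largest changes. The distance was not scaled to the size of a change and can grow with it, so nothing is drawn from that order.

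The complexes that carry Hdac1 and Hdac2 were followed as fixed lists of subunits. Over the whole course, the median log2 fold change was 0.05 over the 15 SIN3 genes (4 rose and 5 fell), -0.32 over the 11 NuRD genes (1 rose and 5 fell) and 0.76 over the 10 CoREST genes (8 rose and 0 fell), beside -0.02 over all genes. Of all tested genes 71.8% were called (35.5% higher and 36.4% lower), and the numbers called in these lists, 9 of 15, 6 of 11 and 8 of 10, are to be read against that share. In the SIN3 list the scaffold Sin3a was at 0.03 (edgeR adjusted p 0.809) and Sin3b rose by 0.60 (SE 0.11, edgeR adjusted p 0.00036), with Sap25 the largest rise (1.28) and, with all 6 libraries, Sap30 the largest fall (-1.74). By its transcript with the lowest mean count Sin3b was at 0.09 and not called. In NuRD the remodeller Chd4 (-0.10) and the subunits Mta1 (0.08) and Mta3 (-0.02) did not pass the test, while Mta2 (-0.50), Mbd3 (-1.26) and the remodeller Chd3 (-1.55, SE 0.12, edgeR adjusted p 1.07e-06) fell. Gatad2b was the gene that rose (0.37), a call lost without day 0 replicate 2 (0.25), day 4 replicate 1 (0.34) or day 4 replicate 2 (0.39). In CoREST the scaffold Rcor1 rose by 0.62 (SE 0.10, edgeR adjusted p 0.000207) and Phf21a by 1.52, the largest rise with all 6 libraries (without day 0 replicate 2 it was Gse1, at 1.68), while the demethylase Kdm1a was at 0.26 (edgeR adjusted p 0.0657) and was called at 0.42 without day 0 replicate 1. Of the 8 CoREST rises, that of Hmg20b (0.43) was not called without day 0 replicate 1 (0.17), day 2 replicate 1 (0.43), day 2 replicate 2 (0.43), day 4 replicate 1 (0.39) or day 4 replicate 2 (0.47). That of Zmym3 (0.33) was not called without day 4 replicate 2 (0.22) and stood at -0.22 by its transcript with the lowest mean count. Gse1, Hmg20b and Zmym3 are named here after their values were seen.

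The histone chaperones Rbbp4 and Rbbp7, shared by SIN3 and NuRD, both fell over the whole course, where 36.4% of all tested genes did. Rbbp7 had the larger fall (log2 fold change -2.06, SE 0.20, edgeR adjusted p 3.61e-06), from 433 ± 151 CPM at day 0 to 173 ± 9.99 CPM at day 2 and 104 ± 4.47 CPM at day 4 (SD, n = 2). The Rbbp4 value was -0.47 and was not called without day 4 replicate 1 (-0.37), which left 1 chaperone called. In the NCoR list, partners of Hdac3, 2 genes rose and 1 fell of 4, where 71.8% of all tested genes were called, with a median of 0.02: Ncor1 (0.32) and Gps2 (0.36) rose, and Tbl1xr1 fell (-0.86, SE 0.12, edgeR adjusted p 5.68e-05). The call of Ncor1 was lost without day 0 replicate 1 (0.19), day 2 replicate 1 (0.32), day 2 replicate 2 (0.32), day 4 replicate 1 (0.32) or day 4 replicate 2 (0.33), and that of Gps2 without day 4 replicate 1 (0.37) or day 4 replicate 2 (0.34). The number of NCoR genes called was 1 without day 4 replicate 1 or day 4 replicate 2. The value of Tbl1x, the gene that did not pass, was -0.29, and it was called at -0.52 without day 0 replicate 2. In the MiDAC complex, a partner of Hdac1 and Hdac2, Dnttip1 (0.46) and Trerf1 (0.47) rose of 3 tested genes, beside the same share and with a median of 0.46, and Zfp541, with 11 counts in all, was not tested.

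Of the 21 class IIa partners, 17 were tested, and 7 rose and 8 fell over the whole course, with a median log2 fold change of -0.17, where 71.8% of all tested genes were called. Mef2c (8 counts in all), Prkd1 (1), Camk4 (1) and Camk2d (0) were not tested. Mef2d was at 0.12 (edgeR adjusted p 0.53) and was called at 0.46 without day 0 replicate 2. The 14-3-3 gene Sfn had the largest rise (2.70, SE 0.35, edgeR adjusted p 3.5e-05) and the 14-3-3 gene Ywhaz the largest fall (-1.19, SE 0.11, edgeR adjusted p 2.74e-06). Sfn was low at day 0, at 0.39 ± 0.274 CPM (SD, n = 2), and its rise was 2.16 without day 0 replicate 1 and 3.72 without day 0 replicate 2. Of the 7 rises, that of Camk2g (0.36), named after its values were seen, was not called without day 0 replicate 2 (0.15), day 2 replicate 1 (0.36), day 2 replicate 2 (0.36), day 4 replicate 1 (0.32) or day 4 replicate 2 (0.40).

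Of the 7 sirtuins, the NAD-dependent deacetylases, 3 rose and 1 fell over the whole course, with a median log2 fold change of 0.29, where 71.8% of all tested genes were called. Sirt1 was at 0.23 (edgeR adjusted p 0.124), Sirt7 had the largest rise (1.20, SE 0.12, edgeR adjusted p 3.82e-06), and Sirt6 had the fall (-0.39), a call lost without day 0 replicate 2 (-0.30) or day 4 replicate 1 (-0.31). Of the 12 lysine acetyltransferases, the opposing enzymes, 6 rose and 3 fell, with a median of 0.28, beside the same share. Of the rises, that of Kat6b (0.33), named after its values were seen, was not called by DESeq2 (0.31) or with only the 2 days compared (0.33). Nor was it called without day 0 replicate 1 (0.25), day 2 replicate 1 (0.33), day 2 replicate 2 (0.33) or day 4 replicate 1 (0.24). Ep300 (0.87) and Crebbp (0.82), the paired coactivators, rose, Kat2a fell (-0.92), and Kat2b was at 0.23 (edgeR adjusted p 0.0811). Ncoa1 had the largest rise (1.13) and Hat1, which acetylates newly made histone H4, the largest fall (-2.11, SE 0.12, edgeR adjusted p 1.21e-07).

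From day 0 to day 2, 62.5% of all tested genes were called (31.0% higher and 31.5% lower). In SIN3 4 rose and 5 fell, in NuRD 0 rose and 5 fell, and in CoREST 7 rose and 0 fell, with medians of 0.02, -0.33 and 0.62, beside 0.01 over all genes. Of the SIN3 rises, those of Sap25 (0.39) and Sap130 (0.35) were not called by DESeq2 (0.36 and 0.32), which called 7 SIN3 genes. Of the SIN3 falls, that of Brms1 (-0.45) was not called with total counts alone (-0.25). NCoR and MiDAC had 0 calls by edgeR, with 0 genes at an unadjusted p below 0.05 and 0 calls by DESeq2 in each list. The NCoR number was 1 without day 0 replicate 1 or day 0 replicate 2, and that of MiDAC was 1 without day 0 replicate 1. Of the chaperones 1 fell, of the class IIa partners 6 rose and 8 fell, of the sirtuins 4 rose and 1 fell, and of the acetyltransferases 5 rose and 4 fell. Their median log2 fold changes were -0.71, 0.01, 0.37 and 0.06, and those of NCoR and MiDAC were -0.09 and 0.09. The sirtuin number was 3 without day 2 replicate 1 and 2 without day 2 replicate 2, and that of the acetyltransferases was 5 without day 2 replicate 1.

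From day 2 to day 4, where 30.3% of all tested genes were called, the numbers called were in SIN3 3, in NuRD 0, in CoREST 6, in NCoR 2, in MiDAC 1, of the chaperones 2, of the class IIa partners 4, of the sirtuins 2 and of the acetyltransferases 5. For NuRD, 1 gene had an unadjusted p below 0.05 and DESeq2 called 0. In CoREST 5 rose and 1 fell, and both chaperones fell. The median log2 fold changes of the lists, in the same order, were -0.00, 0.10, 0.32, 0.06, 0.37, -0.56, 0.11, 0.25 and 0.25, beside -0.00 over all genes. Each of these numbers rests on single libraries. Without day 2 replicate 1 they were 1 for SIN3, 1 for CoREST, 0 for NCoR, 0 for MiDAC, 0 for the chaperones, 1 for the class IIa partners, 1 for the sirtuins and 1 for the acetyltransferases. Without day 2 replicate 2 they were 2 for CoREST, 1 for NCoR, 0 for MiDAC, 0 for the chaperones, 2 for the class IIa partners, 1 for the sirtuins and 2 for the acetyltransferases. A day 4 library left out also moved numbers. Without day 4 replicate 2 SIN3 had 1, CoREST 1, NCoR 1, MiDAC 0, the chaperones 0, the class IIa partners 1, the sirtuins 1 and the acetyltransferases 2. Without day 4 replicate 1 NuRD had 1, NCoR 1, MiDAC 0, the chaperones 1, the class IIa partners 2, the sirtuins 1 and the acetyltransferases 3. Without day 0 replicate 1 or day 0 replicate 2, SIN3 had 6, NuRD 2, MiDAC 2 and the class IIa partners 8.

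**Figure D4:**
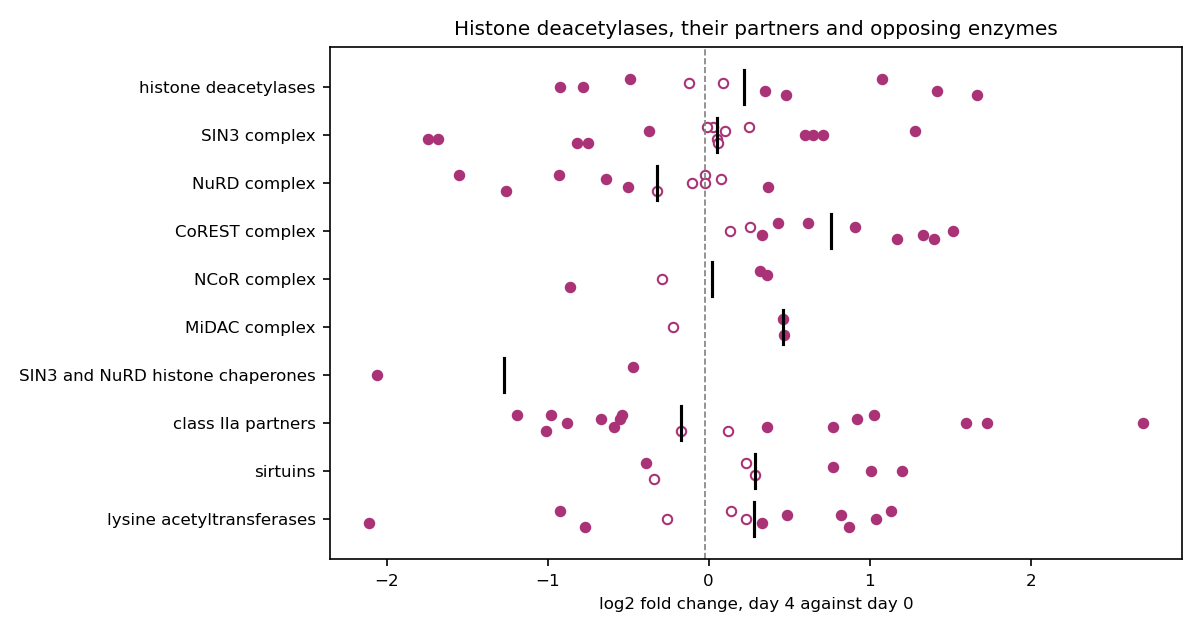
Log2 fold change of each gene of the deacetylase classes, their complexes and related lists over the whole course from edgeR, with the median of each list. The median lies at 0.76 for CoREST, -0.32 for NuRD and -1.27 for the chaperones.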

How the data were processed

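The authors deposited 1 count file per library, and the counts are per RefSeq transcript. Their processing notes name cutadapt, TopHat, HTSeq and DESeq2 and the mouse build mm10, without versions. The study's methods do give a version and a strand option for the alignment with TopHat, and the strand setting of the counting was not found. The files put 50.5% to 58.4% of counts on no feature and list 0 as ambiguous or not unique. The counts on transcripts hold some reads more than once, so these percentages are not shares of reads. Of 32654 transcripts, 32199 got a symbol from the RefSeq table and 187 from GENCODE, and 268 got none.

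From the deposited counts, edgeR 4.0.16 in R 4.3.3 fitted all 6 libraries with a mean per day (quasi-likelihood test, TMM scaling, the edgeR filter on low counts, Benjamini-Hochberg adjustment over 18351 transcripts, two-sided). Each gene is its transcript with the highest mean count. TPM used transcript lengths of GENCODE M21 for 15887 of 16111 genes with a count (98.6%). DESeq2 1.42.0 was an alternative. The other alternatives were other scalings, no filter on low counts, a block for the replicate number, a fit to the libraries of 2 days at a time, the transcript with the lowest mean count, and each library left out. Python 3.11.15 made the tables, and matplotlib 3.10.9 made the figures.

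The named genes are all 10 deacetylase genes and Hdac9, the nearest gene in pattern to 7 of the 8 called at day 4 against day 0, fixed core subunits of the partner lists, and the called gene with the largest rise and the largest fall in each list. Outside this rule, Gse1, Hmg20b, Zmym3, Camk2g and Kat6b are named after their values were seen, as are other genes of the fixed lists, markers among them. Members and lists were chosen with earlier results of these data known. The promoter table matched 7 of the 10 genes. Hdac1, Hdac3 and Hdac10 are named only.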

Additional observations from a re-analysis of the deposited data

Results flagged for a closer look

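For Hdac11, the change from day 2 to day 4 minus the change from day 0 to day 2 was -2.29 (log2, SE 0.26, edgeR adjusted p 0.000246). It stands here because the test of the difference between the steps passed for this gene: it rose by 1.86 over the first 2 days, and the value for the next 2 days was -0.44. The mean level was 3.44 CPM at day 0, 12.5 CPM at day 2 and 9.2 CPM at day 4. Of all tested genes, 30.0% had steps that differed. Both steps share the day 2 libraries. The cause was not tested.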

How the results depend on the processing

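Of the log2 fold changes of the deacetylase genes under 14 alternatives, 363 kept their direction and side of the threshold, 29 passed the test newly, 14 no longer passed it and 14 changed sign. Of the counts of calls, 359 lay within 1.5 times the reported count and 74 did not. Where a library was left out, the lone library of its day was assumed to vary like the other groups. The cause was not tested for any of the changes below.

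With total counts alone, Hdac1 was at -0.07 and Hdac4 at -0.08 over the late step, 4 deacetylase genes were called over the late step (30.4% of all tested genes), and 6 had steps that differed (35.4% of all, with 19.8% of those calls higher). NCoR then had 1 call over the early step and 1 over the late step, and MiDAC had 0 over the late step. With no filter on low counts, Hdac4 was at -0.00 over the late step, 6 deacetylase genes were called in that comparison (26.8% of all), 3 had steps that differed (27.1%), and MiDAC had 2 calls over the late step. With only the 2 days compared, Hdac4 was at -0.01 and 6 deacetylase genes were called over the late step (45.0% of all), with 6 calls in SIN3, 2 in NuRD, 2 in MiDAC and 8 in the class IIa partners, and NCoR had 2 over the whole course. With DESeq2, 4 deacetylase genes were called over the late step (30.9% of all), 2 had steps that differed (30.0%), and 3 sirtuins were called over the early step. With relative log expression factors, and with the transcript of the lowest mean count, MiDAC had 2 calls over the late step.

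The replicate numbers are a block in name only: deviations of libraries with the same number correlated at 0.0316, 0.0451 and 0.0791. With the number as a block the deacetylase genes called were 7, 4 and 8 over the early step, the late step and the whole course. Of all tested genes 62.2%, 29.8% and 71.7% were called in the same order. Hdac5 (edgeR adjusted p 0.0244) and Hdac11 (edgeR adjusted p 0.0424) passed over the late step. NCoR had 1 call over the late step with the block. It changed no other call of a deacetylase gene in these 3 comparisons.

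With each library left out in turn, over the late step Hdac1 ranged from -0.07 to 0.10, Hdac4 from -0.03 to 0.03 and Hdac7 from -0.17 to 0.00. Hdac3 ranged from -0.19 to 0.39 over the early step, and over the whole course Hdac8 ranged from -0.08 to 0.25 and Hdac10 from -0.29 to 0.04. For the early step, the late step and their difference, the changed numbers of deacetylase genes called stand in the Results. There they are given beside the share of all tested genes called in the same fit. Over the late step the calls ranged from 1 to 6 in SIN3, 0 to 2 in NuRD, 1 to 6 in CoREST, 0 to 3 in NCoR, 0 to 2 in MiDAC, 0 to 2 in the chaperones, 1 to 8 in the class IIa partners, 1 to 3 in the sirtuins and 1 to 7 in the acetyltransferases. Over the early step they ranged from 0 to 1 in NCoR and in MiDAC, 2 to 5 in the sirtuins and 5 to 9 in the acetyltransferases. Over the whole course they ranged from 1 to 4 in NCoR and 1 to 2 in the chaperones.

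With 2 replicates a day, the spread is estimated from few libraries. Depth limits Hdac11 most, with 125 counts in its lowest library, and Hdac9 at 0 counts could not be tested. Levels of Hdac1 and Hdac11 rest in part on sequence shared with other genes, and overlapping genes and the unknown strand setting add to that for Hdac4, Hdac5, Hdac7, Hdac8 and Hdac10.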
